A study of Homo sapiens with 4 samples.

Results

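The integrated stress response genes described here are 10 transcripts of the ATF4 pathway, ATF4, CEBPG, ATF5, DDIT3, PHGDH, PSAT1, ASNS, CHAC1, TRIB3 and PPP1R15A, chosen by gene symbol from the 27106 genes of the table. They were measured by RNA sequencing of total RNA in THP-1, a human acute monocytic leukaemia line that carries the MLL-AF9 fusion. All 4 libraries are labelled day 5, and the labels do not say from what the days are counted. In 2 of them the cells had been transfected with a non-targeting antisense oligonucleotide (ASO, a short synthetic strand that base-pairs with a transcript and reduces it), and in the other 2 with an ASO against the long noncoding RNA SGOL1-AS1. No stress agent is named for either group, so each gene is described at the level it had in cultured, transfected cells. The headers of the knockdown columns name a code found nowhere in the labels. They were assigned to that group by elimination and numbered in column order, and every direction below rests on this. The labels name neither separate cultures nor a second ASO against the target, so p-values measure the spread between these libraries, which may be technical, and effects of the ASO itself cannot be told apart from those of losing the target.

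The integrated stress response starts when 1 of 4 kinases (HRI, PKR, PERK or GCN2, encoded by EIF2AK1 to EIF2AK4) phosphorylates the translation initiation factor eIF2. General translation then slows, while certain mRNAs with short upstream reading frames, among them that of the transcription factor ATF4, are translated more. ATF4, paired with a C/EBP protein, switches on genes for amino acid synthesis and uptake, tRNA charging and glutathione turnover, and with CHOP (DDIT3) genes of feedback and cell death. RNA sequencing reads the mRNA levels of these genes and not the translation of ATF4 or the phosphorylation of eIF2.

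ATF4 and its C/EBP partners bind a composite DNA element whose core reads TGATGNAA. This core was searched on both strands of the RefSeq promoter windows (GRCh38.p14, 250 bases before to 50 after each annotated start), as was TGACGT, the core of the cAMP response element that other ATF and CREB proteins bind. All 10 genes had at least 1 window. The composite core was in windows of 3 of them, ASNS, CHAC1 and CEBPG, and in those of 2.90% of the 11815 tested genes that had a window (3.62% of all 35116 windows). TGACGT was in the window of 1, PPP1R15A, and in 13.7% of the tested genes (7.98% of all windows). The matches are shown because factors of this pathway are known to bind such cores. Each stretch is 30 bases, 5′ to 3′ on the gene's strand, with the matched core in capitals.
ASNS: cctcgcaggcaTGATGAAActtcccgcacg
CHAC1: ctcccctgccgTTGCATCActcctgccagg
CEBPG: cgcgcggcgtcTGATGCAAcctgccggcaa
PPP1R15A, upstream site: gaaactccgccgTGACGTtgcaaaagctgg
PPP1R15A, downstream site: cgcctctcttcgTGACGTcagcacgccggg
The ASNS site (chr7:97872458-97872487, minus strand) begins its core 68 bases before a RefSeq start, of which the gene has 2. The CHAC1 site (chr15:40953251-40953280, plus strand) lies 209 bases before the RefSeq start and holds the core on the opposite strand. The CEBPG site (chr19:33374060-33374089, plus strand) lies 42 bases before the second of its 2 annotated starts. These ASNS, CHAC1 and CEBPG sites lie inside the gene spans given below, which come from GENCODE and begin further upstream. The PPP1R15A cores lie 152 and 58 bases before the start (chr19:48872257-48872286 and chr19:48872351-48872380, plus strand), and a match on the other strand, beginning 56 bases before the start, overlaps the downstream one. A match describes letters only, and its absence from the other windows says nothing about the factor. Of the genes with a composite core, ASNS had both knockdown values above, and CHAC1 and CEBPG had overlapping groups.

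None of the 10 genes passed the test. The values are normalized counts, reads divided by 1 size factor per library, and they were compared on the log2(value + 1) scale with limma over the 19398 genes whose mean was at least 10, at a Benjamini-Hochberg adjusted p under 0.05. Over all tested genes, 660 were lower in the knockdown (3.40%) and 165 higher (0.851%). All 10 members passed the filter on low values, 0 were called lower and 0 higher, and edgeR (2.87% of all tested genes lower, 0.820% higher) and DESeq2 (1.96% and 0.345%) on the recovered reads also called 0 members. At an unadjusted limma p under 0.05, 3 were lower (ATF4, TRIB3 and ATF5) and 0 higher, against 11.0% and 6.17% of all tested genes. The median log2 fold change (knockdown minus non-targeting) was -0.07, beside -0.01 over all tested genes. Of the 10 members 8 stood below 0, beside 10179 of the 19398 tested genes. With quantile normalization or the same total in every library only 5 members stood below 0, so no direction can be given for the set. Both knockdown values lay below both non-targeting values for 3 genes (25.1% of all tested genes) and above for 1 (21.6%), and the groups overlapped for 6.

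**Figure D1:**
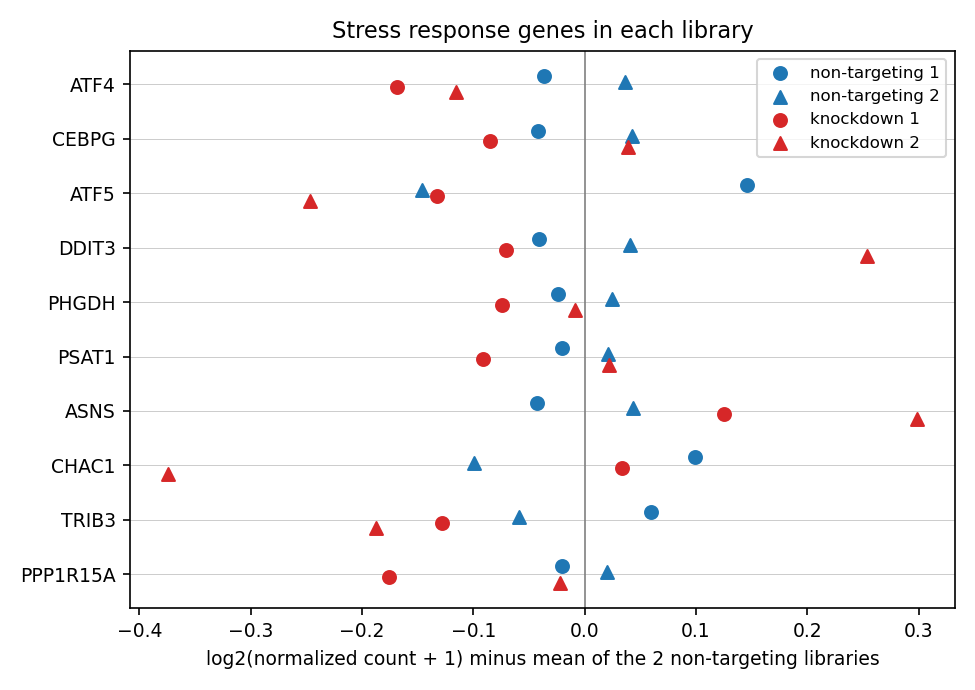
Each gene's log2(normalized count + 1) in each of the 4 libraries, as a difference from the mean of the 2 non-targeting libraries (blue, non-targeting; red, knockdown; circles, library 1; triangles, library 2, offset vertically for legibility). Both red points lie left of both blue points for ATF4, TRIB3 and PPP1R15A and right of them for ASNS; the knockdown libraries fall on opposite sides of 0 for DDIT3, CHAC1, PSAT1 and CEBPG.

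The targeted RNA gave few reads. SGOL1-AS1, now named SGO1-AS1 (ENSG00000231304), had 24 and 21 reads with the non-targeting ASO and 12 and 17 with the ASO against it (limma, log2 fold change -0.48, adjusted p = 0.555), so its level does not check the labels. Library totals were between 41435922 and 51851314 reads. Summed monocyte markers were between 96326 and 104660 normalized counts in the 4 libraries, with lysozyme (LYZ) the highest and 1 of 11 tested called lower. Of 10 T and B lymphocyte markers, 6 were in the table, with a sum of 4764 to 4815 in the non-targeting and 2936 to 3610 in the knockdown libraries. Most of that sum was PAX5, a B-lineage factor, which is called lower. Only 1 of 9 erythroid and megakaryocyte markers (GP9) and 4 of 10 epithelial and fibroblast markers were in the table, with sums of at most 28.8 and 441. The part of these differences in the results below was not tested. In bulk RNA, fewer cells of a type and less RNA per cell cannot be told apart.

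ATF4 (ENSG00000128272, chr22:39519695-39522685 on GRCh38, plus strand), the factor that names the pathway, is an abundant mRNA in these cells. It stood at 10230.3 and 10756 normalized counts in the non-targeting libraries and at 9330.2 and 9683 in the knockdown libraries. Both knockdown values are lower than both others. The means were 10493 ± 372 (SD, n = 2) and 9506 ± 249, a log2 fold change of -0.14 ± 0.05 (SE), with a 95% interval of -0.25 to -0.04 and an adjusted p of 0.123 (limma). The difference was larger than the gap between the libraries of either group, 0.07 and 0.05 on the log2 scale. Counting error was small: with 8490 to 11433 reads per library, the read rate pooled over the knockdown libraries was 0.904 of that in the non-targeting ones (exact 95% Poisson interval 0.887 to 0.922, which covers counting error only). Over 15 alternatives the log2 fold change ranged from -0.18 to -0.09 and the adjusted p from 0.0542 to 0.637. Among 12354 other genes with a symbol and a mean of at least 100, the 5 whose centred log2 profile over the 4 libraries was closest to that of ATF4 were MYDGF, SDC4, MFSD14B, NDUFB11 and GOLM1, at root mean square distances of 0.0038 to 0.0060. As 1573 genes lay within 0.05, that likeness over 4 libraries separates few of them.

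The other transcription factors of the pathway were not called. CEBPG (chr19:33373330-33382686, plus strand) encodes a C/EBP protein without an activation domain that pairs with ATF4. It stood at 5796 and 6145 in the non-targeting libraries and at 5627 and 6131 under knockdown, so the groups overlap (log2 fold change -0.02, 95% interval -0.14 to 0.09). ATF5 (chr19:49928702-49933935, plus strand), a relative of ATF4 that is also under translational control, stood at 3158 and 2581 in the non-targeting libraries and at 2605 and 2406 under knockdown. Non-targeting library 1 is the high one, and non-targeting library 2 lies between the knockdown libraries. The log2 fold change was -0.19 ± 0.07 (SE; 95% interval -0.34 to -0.04; limma adjusted p = 0.172). Without non-targeting library 2 it was -0.34 and without knockdown library 1 it was -0.25, and in both runs ATF5 was called lower. Without non-targeting library 1, the high one, it was only -0.04, and without knockdown library 2 it was -0.13. Neither of these was called. ATF5 overlaps genes on the opposite strand, sharing 626 of its annotated exonic bases (21.2%) with NUP62, a nuclear pore protein, and 75 (2.54%) with the amino acid oxidase IL4I1. NUP62 was at 8631, 7951, 7491 and 7524, in the order non-targeting 1 and 2, knockdown 1 and 2, and IL4I1 at 1295, 1469.5, 566 and 766. The strand setting of the counting is not given in the sources used here, so reads from the shared stretch could belong to either strand. IL4I1 was itself called lower (limma, log2 fold change -1.07, adjusted p = 8.71e-07), and its part in the ATF5 values was not tested.

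DDIT3 encodes CHOP, the C/EBP-family factor that turns a prolonged response toward cell death. The gene (chr12:57516588-57521737, minus strand) stood at 644 and 682 in the non-targeting libraries and at 631 and 790.4 under knockdown. Knockdown library 1 was the lowest of the 4 and knockdown library 2 the highest. The log2 fold change was 0.09 ± 0.10 (SE), with a 95% interval of -0.11 to 0.29 (limma adjusted p = 0.69). It was -0.07 without knockdown library 2. DDIT3 shares 355 exonic bases (27.2%) with MARS1, the methionyl-tRNA synthetase gene on the opposite strand, which was at 11404 to 12091 normalized counts. It also shares 105 (8.03%) with AC022506.1, a gene on the same strand that is not in the table, and 58 (4.44%) with MBD6 on the opposite strand. How reads of the shared stretches were assigned is not known here.

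The serine synthesis enzymes PHGDH and PSAT1, which turn the glycolytic intermediate 3-phosphoglycerate into phosphoserine, gave the narrowest intervals together with ATF4 and CEBPG. PHGDH (chr1:119648411-119744226, plus strand) stood at 13832 and 14309 in the non-targeting libraries and at 13366 and 13982 under knockdown, a log2 fold change of -0.04 with a 95% interval of -0.14 to 0.06. PSAT1 (chr9:78297143-78330093, plus strand) stood at 3161 and 3253 in the non-targeting libraries and at 3009 and 3255 under knockdown, a log2 fold change of -0.04 with an interval of -0.16 to 0.09. For both genes knockdown library 1 was the lowest and knockdown library 2 fell among or just above the non-targeting values. On the linear scale the intervals reach down to 0.905 times the non-targeting level for PHGDH and 0.897 times for PSAT1.

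ASNS, which makes asparagine from aspartate and glutamine, was listed at a low value in every library. Whether that value gives its expression level is not known here. ASNS (chr7:97852118-97872542, minus strand) had 71 and 77 reads with the non-targeting ASO and 80 and 76 with the knockdown ASO, or 68.2 and 72.4 against 76.7 and 86.7 normalized counts. Both knockdown values were higher, but the difference was not called: the log2 fold change was 0.21 ± 0.19 (SE), with a 95% interval of -0.19 to 0.61 (limma adjusted p = 0.635). Of the 2356 bases of its longest principal transcript, 1985 (84.3%) are also annotated to AC079781.5. Those bases are 44.6% of all annotated exonic bases of ASNS. AC079781.5 is a processed transcript on the same strand that spans the gene and was at 75.3 to 85.4 normalized counts. Reads that lie wholly in these shared exons cannot be told apart by position, and how the counting treated them is not given, so the part of the shared exons in the low value was not tested. CARS1, which charges cysteine tRNA and was named after its values were seen, is listed at 6.59 to 7.98 normalized counts. Its exons were not compared with those of other genes, and whether its value and that of ASNS share a cause was not tested.

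CHAC1, TRIB3 and PPP1R15A are the effectors that follow ATF4 and CHOP. CHAC1 (chr15:40952962-40956519, plus strand), an enzyme that cleaves glutathione, stood at 156 and 135 in the non-targeting libraries and at 149 and 112 under knockdown, with 98 to 162 reads. Knockdown library 2 was the lowest, and knockdown library 1 lay between the non-targeting values. The log2 fold change was -0.17 ± 0.16 (SE; 95% interval -0.51 to 0.17; limma adjusted p = 0.656), and without knockdown library 2 it was 0.03. TRIB3 (chr20:362835-397559, plus strand), a pseudokinase that restrains ATF4 and CHOP, stood at 2596 and 2391 in the non-targeting libraries and at 2279.6 and 2187 under knockdown. Here both knockdown values were lower than both others, and the difference exceeded the gaps within the groups (0.12 and 0.06 on the log2 scale). The log2 fold change was -0.16 ± 0.06 (SE; 95% interval -0.29 to -0.03; limma adjusted p = 0.174). PPP1R15A (chr19:48872392-48876057, plus strand) encodes GADD34, which brings protein phosphatase 1 to eIF2 and ends the response. It stood at 3368 and 3463 in the non-targeting libraries and at 3024 and 3363 under knockdown, so that knockdown library 2 almost reached the lower non-targeting value (log2 fold change -0.10, 95% interval -0.22 to 0.03; limma adjusted p = 0.425).

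**Figure D2:**
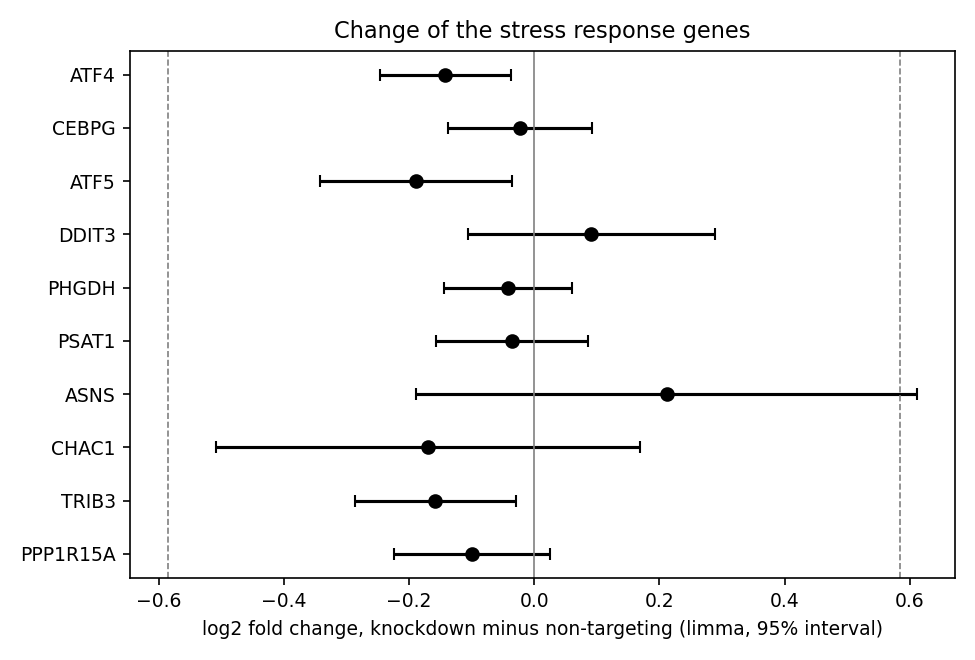
Log2 fold change of each gene, knockdown minus non-targeting, with the 95% interval from limma; the solid line marks no change and the dashed lines a fold of 1.5 in either direction. The intervals of ATF4, ATF5 and TRIB3 lie below 0, and that of ASNS is the only one to reach a dashed line.

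The limma intervals rest on the spread between these libraries, which may be technical, and on the deposited scaling. A 1.5-fold fall lay outside the intervals of all 10 genes, the lowest bound being 0.703 times the non-targeting level (CHAC1). A 1.5-fold rise lay outside those of all but ASNS, whose upper bound was 1.53 times. For ASNS the interval describes the listed value, which may not be its expression level. These intervals are not adjusted for the number of genes. The difference between the groups was larger than the gap between libraries within each group for 3 genes, ATF4, TRIB3 and ASNS (33.9% of all tested genes met this). Counts were also simulated with the same means and library sizes and with the spread that edgeR estimated from these same libraries. There the test recovered 45 of 46 genes changed 1.5-fold (97.8%) at a mean of at least 500, the level of 8 of the 10 genes. Over all 19398 genes simulated it recovered 64 of 114 (56.1%). These shares hold only for that spread, so they cannot show that a member did not change. The median deviation of the 10 genes from the non-targeting mean was -0.09 in knockdown library 1 and -0.02 in knockdown library 2, beside -0.01 and -0.0021 over all tested genes, so the lower median came mainly from knockdown library 1.

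Compared per length, the 10 genes spanned a wide range. Divided by the length of all annotated exons, ATF4 was highest at 4174 normalized counts per kilobase in the non-targeting group, above 97.8% of the tested genes. PHGDH (1527), PSAT1 (1466), CEBPG (1354), PPP1R15A (1104), ATF5 (971), TRIB3 (726) and DDIT3 (507) followed. CHAC1 (70.7) was lower still, above 41.2% of the tested genes, and ASNS was listed at 15.8. Over the 4 libraries the values of PHGDH and PSAT1 overlapped, as did those of PSAT1 and CEBPG and those of PPP1R15A and ATF5, while the other neighbours in this order did not overlap. With the longest principal transcript as the length, chosen after seeing the data, PHGDH (5443) stood beside ATF4 (5197), since PHGDH has many annotated exons outside its main transcript. CHAC1 was at 93.3 with that length. ASNS was at 29.8, and at 189.5 when counted over the 371 bases of that transcript shared with no gene on its strand, so its place relative to CHAC1 is not settled by these values. ATF4, PSAT1 and ASNS have processed pseudogenes in the table, at most at 71.0 normalized counts (ATF4P3), and reads could be split between a gene and such a copy.

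**Figure D3:**
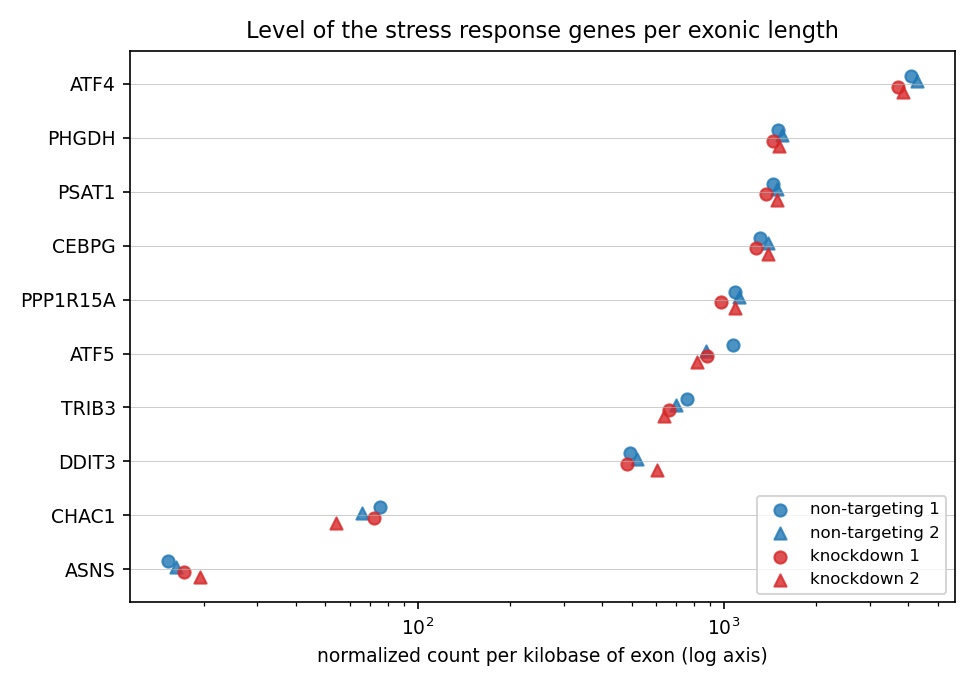
Normalized count per kilobase of annotated exon for each gene in each of the 4 libraries, on a log axis (blue, non-targeting; red, knockdown), ordered by the non-targeting mean. ATF4 is at a mean of 4174 and ASNS is listed at 15.8 in the non-targeting group, and the 2 groups lie close together for each gene. Another annotated gene shares 1985 (44.6%) of the exonic bases of ASNS.

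Other genes of the pathway and genes related to it were taken from 7 lists, of which 116 genes were tested. Of these, 12 were called lower (10.3%) and 1 higher, beside 3.40% and 0.851% of all tested genes. The lists were chosen with earlier results of these data known, so these shares describe the lists and do not test the pathway. Upstream of ATF4, 2 of 21 genes for eIF2, its kinases, its exchange factor eIF2B and its phosphatases were lower and 0 higher (median log2 fold change -0.02). EIF2AK2, which encodes PKR, the eIF2 kinase that senses double-stranded RNA and is itself induced by interferon, stood at 28935 and 31902 in the non-targeting libraries and at 23689 and 27801 under knockdown. It fell by 0.24 on the log2 scale (limma adjusted p = 0.0247), and DESeq2 did not call it (adjusted p = 0.487). PPP1R15B, the constitutive counterpart of PPP1R15A, stood at 13564 and 13441 in the non-targeting libraries and at 11701 and 12027 under knockdown, with little spread in either group. It fell by 0.19 (limma adjusted p = 0.0264; 0.0396 by DESeq2).

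Among 17 tested bZIP relatives of ATF4 and CHOP, 3 were lower and 0 higher (median -0.06). BATF2, an interferon-induced factor, stood at 433 and 434 in the non-targeting libraries and at 246 and 270.3 under knockdown, a fall of 0.75 on the log2 scale (limma adjusted p = 0.000128). ATF3, a repressor induced by ATF4 and by other stress and growth signals, stood at 446 and 431 in the non-targeting libraries and at 305 and 351 under knockdown, a fall of 0.42 (limma adjusted p = 0.0203). CEBPB, a partner of ATF4 and of CHOP that also acts in monocytes, fell by 0.27 (limma adjusted p = 0.0484; 0.0919 by edgeR).

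None of the 13 tested enzymes of serine, glycine, proline and one-carbon metabolism was called, with log2 fold changes from -0.12 to 0.24. SHMT2, which makes glycine from serine in mitochondria, was at -0.09 (limma adjusted p = 0.376), and its cytosolic counterpart SHMT1 at 0.24 (0.52). None of 18 tested cytosolic aminoacyl-tRNA synthetases was called either, CARS1 being under the filter (median -0.05). AARS1, which charges alanine tRNA, was at -0.15 (limma adjusted p = 0.115) and WARS1, for tryptophan, at -0.11 (0.327). Without knockdown library 2 both were called lower, at -0.21 and -0.19. Without knockdown library 1 they were at -0.09 and -0.03 and not called. Among 12 tested amino acid transporters 1 was higher and 0 lower. SLC7A11, the cystine-glutamate exchanger, which NRF2 controls as well as ATF4, stood at 1916 and 1942 in the non-targeting libraries and at 2597 and 2384 under knockdown, and it rose by 0.37 (limma adjusted p = 0.000885). Its partner chain SLC3A2 was at -0.12 (0.254).

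Of 22 other ATF4 and CHOP targets tested, 4 were lower and 0 higher (median -0.11). VEGFA, the angiogenic growth factor, stood at 2771 and 2829 in the non-targeting libraries and at 2030.2 and 2315 under knockdown, a fall of 0.37 on the log2 scale (limma adjusted p = 0.00118). HMOX1, the haem-degrading oxygenase, fell by 0.44 (limma adjusted p = 0.0192) and TNFRSF10B, the TRAIL receptor DR5, by 0.31 (0.0335). VLDLR, a lipoprotein receptor, fell by 0.17 (0.0488). The IRE1 and ATF6 arms of the unfolded protein response, which share the sensing of misfolded protein with PERK but do not signal through eIF2, had 3 of 13 tested genes lower and 0 higher (median -0.07). XBP1, the factor that IRE1 activates by splicing, stood at 9475 and 10020.4 in the non-targeting libraries and at 8246 and 8495 under knockdown, a fall of 0.22 (limma adjusted p = 0.0129). EDEM1, which directs misfolded glycoproteins to degradation, fell by 0.26 (0.00542) and the chaperone cofactor SDF2L1 by 0.23 (0.0235).

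**Figure D4:**
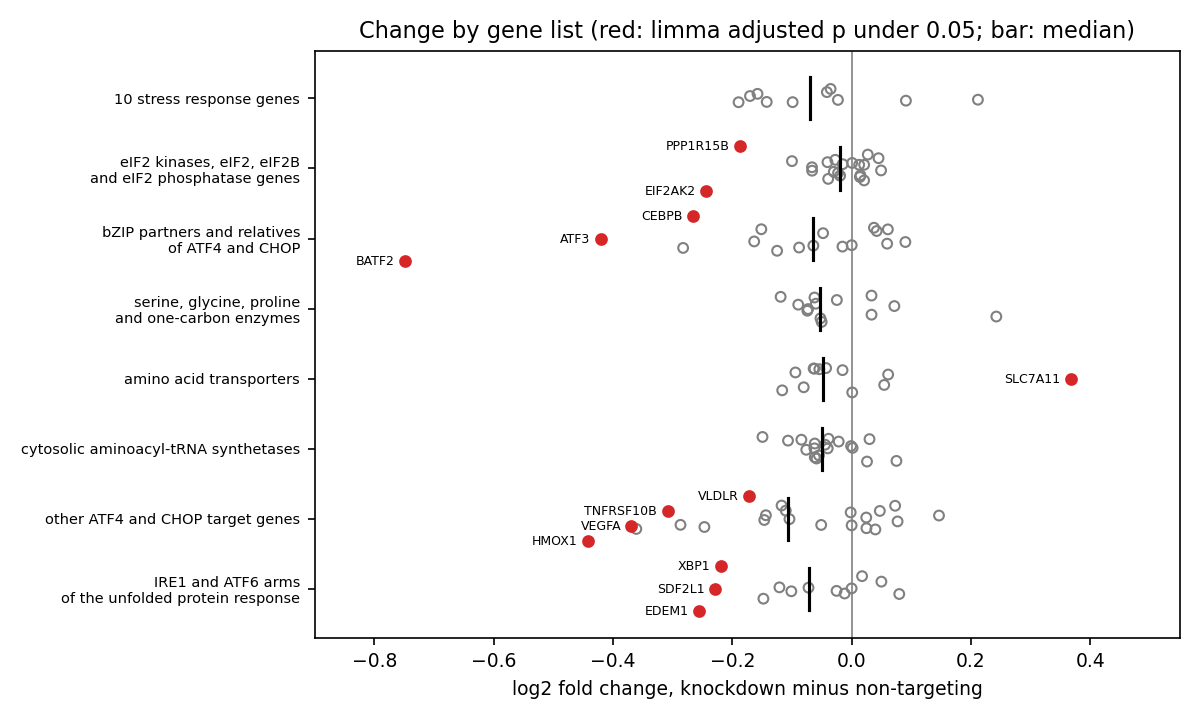
Log2 fold change, knockdown minus non-targeting, of each tested gene in the 10 stress response genes and in 7 lists of related genes (points, jittered vertically); filled red points are called by limma at an adjusted p under 0.05 and named, and bars mark each list's median. No point is red among the 10 genes, the largest fall is that of BATF2 and the only called rise is that of SLC7A11.

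Several of these calls rested on scaling or on 1 library. The same total in every library ended 9 of the 13, leaving BATF2, SLC7A11, VEGFA and EDEM1, and leaving out non-targeting library 2 also ended 9, leaving BATF2, CEBPB, SLC7A11 and VEGFA. Non-targeting library 1 and knockdown library 1 each ended 6 when left out, among them PPP1R15B, ATF3, HMOX1, TNFRSF10B and VLDLR, and knockdown library 2 ended those of CEBPB and SDF2L1. Quantile normalization ended 8 and limma with no mean-variance trend all 13. DESeq2 ended 7, those of EIF2AK2, ATF3, CEBPB, HMOX1, TNFRSF10B, VLDLR and SDF2L1. The 3 that edgeR ended were those of CEBPB, TNFRSF10B and VLDLR.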

How the data were processed

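Libraries of total RNA from 4 samples were made with NEBNext reagents, per the labels' protocols. STAR 2.5.1b, DESeq2 and GRCh38 are named per the submitters' processing notes, with no role. The sources used here name no annotation release, counting tool or strand setting. The deposited normalized signal per gene is a read count divided by 1 size factor per library by the authors; all values (100%) were whole reads within 0.01. Knockdown library 1 holds no gene under 2 reads, but up to 2375 genes are under it in another library, so genes lost there are not analysed here. Symbols matched 26579 of 27106 identifiers, and positions and exons came from GENCODE on GRCh38. The main test was limma 3.58.1 (R 4.3.3) on log2(value + 1), with a mean-variance trend and a mean of at least 10. Alternatives were other filters, pseudocounts, scalings and limma settings, each library left out in turn, and, on recovered reads, DESeq2 1.42.0 and the quasi-likelihood test of edgeR 4.0.16. Limma was tested on simulated counts. The members and lists were chosen with earlier results of these data known. Named were all members, SGO1-AS1, the called genes of each list (at most 6, otherwise the 2 smallest p) and the 5 profiles closest to ATF4. Genes overlapping a member and top markers were named after their values were seen.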

Additional observations from a re-analysis of the deposited data

How the results depend on the processing

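No paired analysis was possible because the knockdown columns are numbered otherwise than their labels, so the groups share fewer than 2 numbers. Of the members, ATF4, TRIB3, ASNS, ATF5 and PPP1R15A kept their sign in every alternative run (ASNS has no DESeq2 adjusted p). No member was called in an alternative run except ATF5, with a library left out. Signs turned for PSAT1 (0.00889 with quantile normalization, 0.0220 with the same total) and PHGDH (0.0136, 0.0158) and CEBPG (0.0225, 0.0343). With a library left out the log2 fold change ranged from -0.0917 to 0.0214 for PSAT1, from -0.0847 to 0.0390 for CEBPG, from -0.0711 to 0.253 for DDIT3 and from -0.374 to 0.0338 for CHAC1, the extremes being without knockdown library 1 or 2. Genes called lower and higher, 660 and 165, were 650 and 291 with the same median, 334 and 142 after quantile scaling, 293 and 235 at equal totals (the lower share falling from 80.0% to 69.1%, 70.2% and 55.5%), 380 and 67 by DESeq2, 0 and 0 with no trend (2337 at an unadjusted p under 0.05), and 334 to 960 and 87 to 309 with a library left out. With no trend each list also had 0 calls. The eIF2 list, with 2 calls, had 1 with the same median, robust empirical Bayes or DESeq2, 0 with quantile normalization or the same total and 0 to 2 with a library left out. The bZIP list, with 3, had 1 with quantile normalization, the same total or DESeq2 and 1 to 4 with a library left out. The list of other targets, with 4, had 2 with quantile normalization or edgeR, 1 with the same total or DESeq2 and 1 to 4 with a library left out. The IRE1 and ATF6 list, with 3, had 1 with quantile normalization or the same total and 0 to 3 with a library left out, and the synthetases, with 0, had 0 to 2. The cause was not tested. Counting error limits CHAC1 and ASNS, the members with fewest reads. Shared exons may limit ASNS too, which was not tested.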
